A study of Mus musculus with 24 samples.

Results

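Interferon-stimulated genes are genes that cells switch on when interferons bind their receptors. A list of 35 such genes was followed in liver and in bone marrow of male Erfe-/- mice, which lack erythroferrone. The members were found by their gene name in the scanner files. The 35 names, out of 37008 gene names on the array, are carried by 59 of the 56605 probes. Erythroferrone is a hormone that erythroblasts release under erythropoietin and that lowers hepcidin in the liver. Per the labels, all mice were male and Erfe-/-, and blood was taken by puncture behind the eye. They were examined at 0 h (labelled as the control), 24 h or 48 h, with 4 mice per time point. The 24 arrays, 1 per sample, form 6 groups of 4. Every group lacks Erfe, so the values describe phlebotomy within this genotype, and no mice with intact Erfe were analysed here. The labels give neither strain nor age, and do not say whether liver and marrow of one number came from one mouse.

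Type I interferons signal through JAK kinases to a complex that holds STAT2 and IRF9 and binds a DNA element called the interferon-stimulated response element (ISRE). Interferon gamma also signals through JAK kinases, to factors that bind the gamma-activated site (GAS). In liver and marrow these genes have a basal expression without infection, and their products limit viral replication, sense viral RNA and recruit lymphocytes. By role, the list holds 4 signalling factors, 3 sensors of viral RNA, 14 antiviral effectors, the feedback inhibitor Usp18, 7 interferon-inducible GTPases, 2 chemokines and 4 others.

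Levels are given as log2 of the scanner's processed intensity minus the log2 of the 75th percentile of the same array, so a level of 0 equals that percentile. Each gene is read from its brightest usable probe, and a level is compared only within a gene. Of the members, 34 were usable in liver and 35 in marrow. Oas3, an oligoadenylate synthetase, was the exception in liver. Ifit3, Oas1a and Gbp6 have close copies (Ifit3b, Oas1g and Gbp10), so their signal can include that of the copy. Between 28014 and 35700 probes per array were well above background. Erfe was well above background on 0 of the 12 liver arrays at both of its probes. In marrow it was so on 0 and on 1 of 12 arrays. The median level of 15 hepatocyte markers lay between 9.37 and 9.89 on the liver arrays. On the marrow arrays it was -2.77 or lower, except on the 24 h replicate 2 array, where it reached 6.48. That marrow array stands apart. It stays in the fits, and some of the marrow values of 24 h are also given without it. In bulk samples, fewer cells of a type and less RNA per cell cannot be told apart.

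The first question was whether the members changed after blood loss. In liver, 0 of the 34 members passed an adjusted p of 0.05 in limma at 24 h against 0 h, at 48 h against 0 h or at 48 h against 24 h. The share of all 19639 genes that passed was 0% in each of these. Members at an unadjusted p under 0.05 numbered 1, 2 and 3, against 11.2%, 6.55% and 7.67% of all genes. The median member change was -0.06, -0.02 and -0.03, and that of all genes -0.03, -0.02 and 0.0028. Each of the 3 changed sign when 1 array was left out. They became 0.039 without the 24 h replicate 3 array, 0.0075 without the 0 h replicate 4 array and 0.10 without the 24 h replicate 1 array, in that order. Changes lay below 0 for 22, 20 and 20 of the 34 members, against 57.1%, 57.2% and 49.1% of all genes.

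In marrow, 0 of the 35 members passed in limma, against 1% of 21378 genes at 24 h, 1.06% at 48 h and 0.00468% for 48 h against 24 h. Unadjusted p-values under 0.05 were found for 1, 3 and 2 members, against 12.7%, 15.8% and 7.68% of all genes. The lowest adjusted p of a member in limma was 0.150 in marrow and 0.344 in liver. The median member change was -0.11 at 24 h and -0.04 at 48 h, and 0.10 for 48 h against 24 h. The value at 24 h was -0.043 without the 24 h replicate 2 array and -0.0094 without the 0 h replicate 4 array. Of the 35 members, 26 lay below 0 at 24 h and 19 at 48 h, where 56.9% and 50.6% of all genes did. For 48 h against 24 h it was 7 of 35, against 41.7% of all genes. Without the 24 h replicate 2 array, 21 lay below 0 at 24 h, where 50.6% of all genes did. The contrasts with 0 h share the arrays of that time, so their values are not independent.

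**Figure D1:**
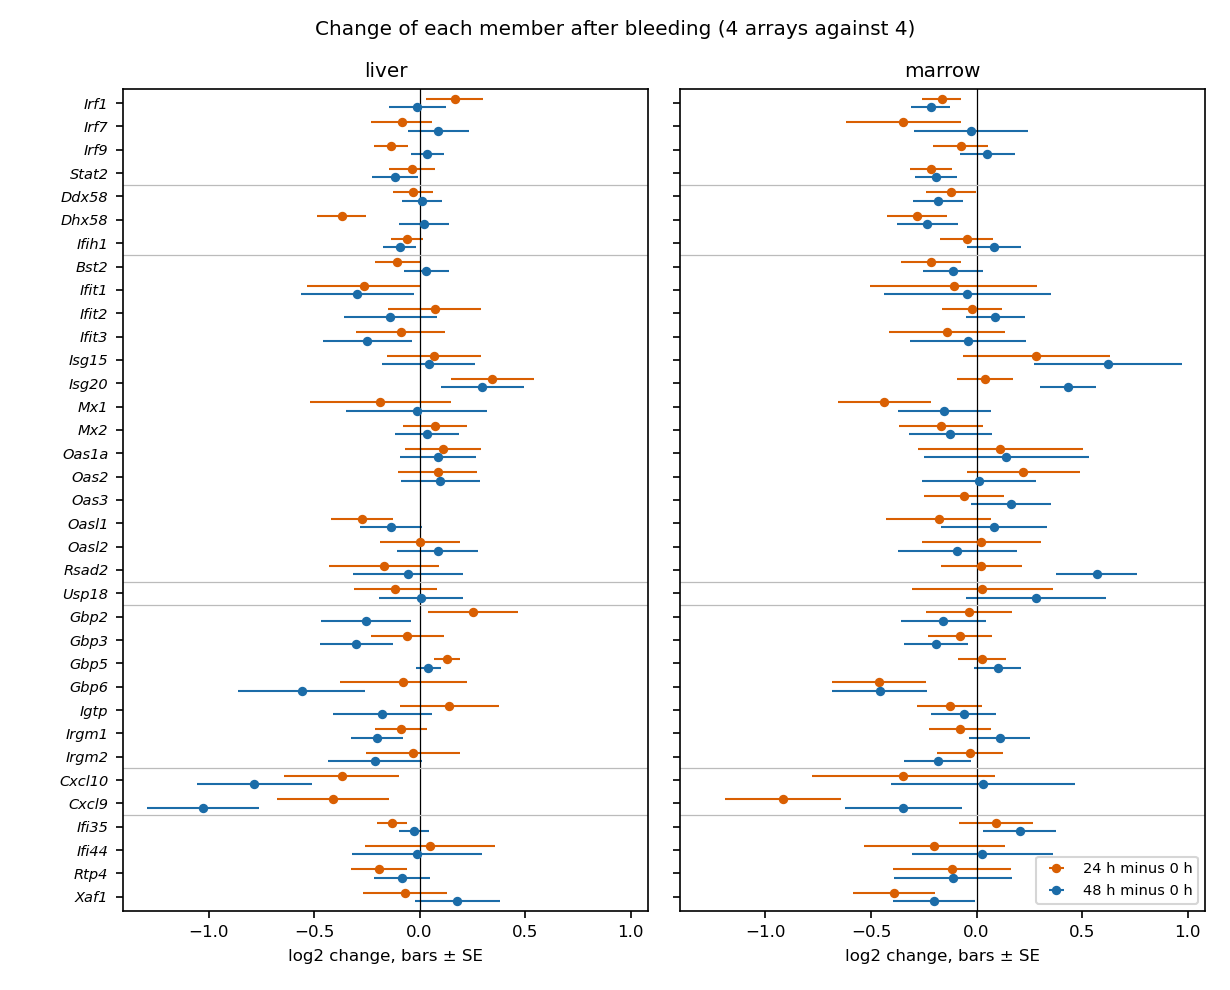
Log2 change of each member at 24 h and 48 h against 0 h in liver and marrow; points are limma's fitted changes over 4 arrays per time, bars their standard errors, and the vertical line is no change. Liver values at 48 h reach down to -1.03 (Cxcl9) and marrow values at 24 h to -0.92 (Cxcl9), while 0 members pass an adjusted p of 0.05.

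The 24-array fit for a difference between tissues in these changes gave 0 of 34 members past the threshold in limma at either time. Among 18218 genes, 0.494% passed at 24 h and 0.752% at 48 h. Unadjusted p-values under 0.05 were found for 0 members at either time, against 12.7% and 12.8% of all genes. The member nearest the threshold at 24 h was Irf1, with a marrow change 0.33 below the liver change (log2 -0.33 ± 0.17 SE, adjusted p = 0.419 in limma). That direction belongs to 1 of its probes. The other Irf1 probe changed at 24 h by 0.33 in marrow and 0.017 in liver.

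Some members separated by time without passing the adjusted test, and they are described here by role. A gene's times are called separated where all 4 arrays of one lie above all 4 of the other, for which the exact two-sided permutation p is 0.0286, the smallest that 4 against 4 can give. Of all genes, 5.76%, 4.34% and 3.73% were separated in liver at 24 h, at 48 h and between 24 h and 48 h. In marrow the shares were 8.09%, 12.4% and 3.77%. The members separated numbered 1, 2 and 3 of 34 in liver and 2, 2 and 1 of 35 in marrow, in the same order.

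Among the signalling factors, Irf9, the DNA-binding part of the type I complex, had liver levels of 2.27, 2.28, 2.16 and 2.30 at 24 h and 2.42, 2.44, 2.34 and 2.49 at 48 h. The 48 h arrays were all higher, by 0.17 ± 0.080 (SE, adjusted p = 0.655 in limma), and its 0 h arrays overlapped both. Stat2, which acts in the same complex, had marrow levels of 1.48, 1.47, 1.55 and 1.75 at 0 h and 1.29, 1.32, 1.34 and 1.44 at 24 h. The difference was -0.22 ± 0.10 (SE, adjusted p = 0.404 in limma), and -0.21 without the 24 h replicate 2 array. Irf1, an early factor of the interferon gamma response, had marrow levels of 3.52, 3.38, 3.39 and 3.38 at 0 h and 3.01, 3.25, 3.35 and 3.18 at 48 h. The difference was -0.22 ± 0.093 (SE, adjusted p = 0.291 in limma), and -0.099 with the mean of both Irf1 probes, which left out the 0 h replicate 1 array because 1 of them was not usable there. All of these differences were small beside the chemokines below.

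Among the sensors, Dhx58 (LGP2), which modulates the RNA sensors of the RIG-I family, had liver levels of -0.33, -0.40, -0.58 and -0.24 at 24 h. At 48 h they were 0.066, 0.036, -0.0047 and -0.086, and at 0 h 0.18, -0.33, -0.10 and 0.18. The 24 h arrays were all below the 48 h ones, while 1 of the 0 h arrays was as low as they were, with 48 h above 24 h by 0.39 ± 0.12 (SE, adjusted p = 0.502 in limma). Ddx58 (RIG-I) and Ifih1 (MDA5), which recognise viral RNA directly, were separated at none of the times in either tissue.

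Among the effectors, Isg20, an exonuclease that degrades viral RNA, was the one that separated. Its marrow levels were 5.79, 5.75, 5.95 and 6.26 at 0 h, 6.10, 5.89, 5.75 and 6.16 at 24 h, and 6.34, 6.58, 6.27 and 6.29 at 48 h. All 48 h arrays were above those of both earlier times, by 0.43 ± 0.13 against 0 h (SE, adjusted p = 0.150 in limma) and by 0.39 ± 0.13 against 24 h (adjusted p = 0.574 in limma), or 0.36 without the 24 h replicate 2 array. The reported probe (mm9 chr7:86065136-86065195, plus strand) and the other Isg20 probe moved alike, with a change at 48 h of 0.45 at the other. Rsad2 (viperin), a radical SAM enzyme that makes a chain-terminating nucleotide, had marrow levels of 3.61, 3.86, 3.82 and 4.31 at 0 h. At 24 h they were 4.08, 3.93, 3.51 and 4.17, and at 48 h 4.40, 4.64, 4.74 and 4.09. The 48 h mean was above that of 0 h by 0.57 ± 0.19 (SE, adjusted p = 0.184 in limma), and 1 of the 48 h arrays lay within the 0 h range. The other effectors overlapped between all times in both tissues.

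The GTPases act in defence against intracellular microbes. Among them, Gbp2 had liver levels of 0.52, 0.18, -0.35 and -0.39 at 24 h. At 48 h they were -0.55, -0.41, -0.67 and -0.44. The 48 h arrays were all lower, by -0.51 ± 0.21 on the log2 scale (SE, adjusted p = 0.614 in limma), and by -0.33 without the 24 h replicate 1 array. Gbp5 had liver levels of 0.48, 0.42, 0.50 and 0.56 at 0 h and 0.61, 0.66, 0.66 and 0.56 at 24 h. The difference of 0.13 ± 0.060 (SE, adjusted p = 0.447 in limma) belongs to 1 of its probes, since the other Gbp5 probe differed by -0.14. Gbp3, Gbp6, Igtp, Irgm1 and Irgm2 overlapped between all times.

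The chemokines Cxcl9 and Cxcl10, ligands of the receptor CXCR3 that attract T and natural killer cells, held the lowest member change in liver at 48 h and in marrow at 24 h, both of them Cxcl9. Cxcl9 (probe at mm9 chr5:92752191-92752250, minus strand) had liver levels of 0.51, 0.78, 0.56 and 1.07 at 0 h. At 24 h they were 1.26, 0.23, -0.0087 and -0.20, and at 48 h -0.19, -0.28, -0.50 and -0.21. All 48 h arrays were below all 0 h arrays, while the 24 h arrays spanned both. The group means were 0.73 ± 0.26 (SD, n = 4) at 0 h and -0.30 ± 0.14 (SD, n = 4) at 48 h, a 2.04-fold lower intensity (log2 -1.03 ± 0.27 SE, adjusted p = 0.508 in limma). Cxcl10 (probe at mm9 chr5:92775781-92775840, minus strand) had liver levels of 0.25, 1.11, 0.080 and 0.98 at 0 h. At 24 h they were 0.90, 0.31, -0.084 and -0.17, and at 48 h -0.00053, -0.44, -0.086 and -0.18. It also lay lower on all 48 h arrays than on all 0 h arrays (log2 -0.78 ± 0.27 SE, adjusted p = 0.649 in limma).

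In marrow, Cxcl9 had levels of -0.73, 0.094, -0.90 and -0.76 at 0 h, -1.37, -1.76, -1.77 and -1.06 at 24 h, and -0.76, -1.34, -0.31 and -1.27 at 48 h. All 24 h arrays were below all 0 h arrays, a 1.89-fold lower intensity (log2 -0.92 ± 0.28 SE, adjusted p = 0.175 in limma), and -0.83 without the 24 h replicate 2 array. The 48 h arrays overlapped both. Marrow Cxcl10 overlapped between all times, as given with its spread below. Some marker lists of lymphoid and other cells were also lower in these contrasts, and others were not. Of 14 T and natural killer cell markers, 9 had an unadjusted p under 0.05 in marrow at 24 h, with a median change of -0.47. The same held for 7 of 10 B cell, 7 of 9 plasmacytoid dendritic cell and 8 of 11 macrophage markers, with medians of -0.67, -0.52 and -0.43. Of all genes, 12.7% had such a p. Without the 24 h replicate 2 array, the medians of these 4 lists were -0.36, -0.58, -0.34 and -0.38. With all arrays, such a p was found for 0 of 12 neutrophil and 4 of 10 erythroid markers, with medians of -0.09 and 0.11. Of 12 T and natural killer cell markers in liver, 4 had one at 48 h, with a median change of -0.31. Of all genes, 6.55% did. It was found for 0 of 9 B cell, 0 of 9 monocyte and 0 of 12 macrophage markers there, with medians of -0.11, -0.08 and 0.0022. At 24 h in liver, the median change of the T and natural killer cell markers was 0.13. The summed linear level of the T and natural killer cell markers ran from 5.11 to 6.79 across the liver arrays at 0 h and from 4.22 to 5.60 at 48 h. In marrow it ran from 27.3 to 35.1 at 0 h and from 18.9 to 28.3 at 24 h. Their part in the chemokine values was not tested.

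The second question was how the members varied between animals of the same time. The pooled within-time SD of a member had a median of 0.288 in liver, where that of all genes was 0.175, and 26 of the 34 members lay above the gene-wide median. In marrow the medians were 0.296 and 0.187, with 29 of 35 members above. SDs of genes at different levels are not matched, so these are descriptions.

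**Figure D2:**
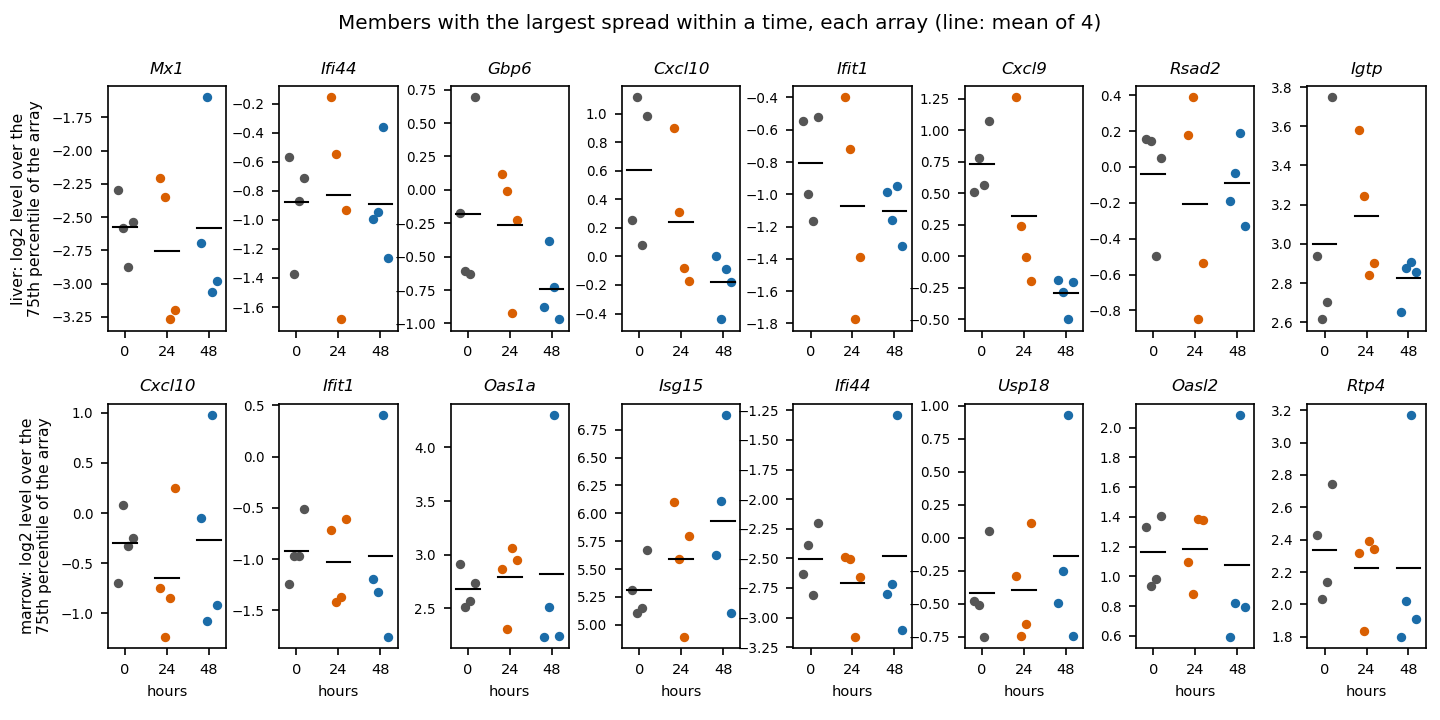
Log2 level of the 8 members with the largest pooled within-time SD in each tissue at 0, 24 and 48 h; each point is 1 array and each short line a mean of 4. The marrow replicate 3 array at 48 h is the highest point of its time for all 8 marrow members, for example 4.30 for Oas1a against 2.52 on the next array.

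In marrow the member with the largest pooled SD was Cxcl10 (0.684), which was above 95.8% of genes. Its levels were -0.70, 0.084, -0.33 and -0.25 at 0 h, -0.75, -1.24, -0.84 and 0.25 at 24 h, and -0.048, -1.08, 0.98 and -0.92 at 48 h. The range at 48 h was 2.06. Ifit1, which binds viral RNA lacking a self cap, had levels of -1.24, -0.97, -0.97 and -0.51 at 0 h, -0.72, -1.42, -1.37 and -0.61 at 24 h, and -1.19, -1.32, 0.41 and -1.76 at 48 h. Oas1a, which makes the oligoadenylates that activate RNase L, had levels of 2.91, 2.51, 2.57 and 2.74 at 0 h, 2.87, 2.30, 3.06 and 2.95 at 24 h, and 2.23, 2.52, 4.30 and 2.24 at 48 h. In these 3 genes the 48 h replicate 3 array was the highest of its time.

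Isg15, a ubiquitin-like modifier, had marrow levels of 5.32, 5.11, 5.15 and 5.67 at 0 h, 6.10, 5.59, 4.89 and 5.80 at 24 h, and 5.63, 6.11, 6.88 and 5.11 at 48 h. Usp18, the protease that removes Isg15 and damps the type I receptor, had levels of -0.48, -0.51, -0.75 and 0.053 at 0 h, -0.29, -0.75, -0.65 and 0.11 at 24 h, and -0.49, -0.25, 0.93 and -0.75 at 48 h. For both, replicate 4 was the high array at 0 h and replicate 3 at 48 h. Oasl2, a relative of the synthetases, had levels of 1.33, 0.93, 0.98 and 1.41 at 0 h, 1.096, 0.88, 1.39 and 1.38 at 24 h, and 0.59, 0.82, 2.08 and 0.79 at 48 h. Rtp4, a chaperone for cell-surface receptors, had levels of 2.43, 2.04, 2.14 and 2.74, then 2.32, 1.84, 2.39 and 2.34, then 1.80, 2.02, 3.17 and 1.91. Ifi44, a GTP-binding antiviral protein, had levels of -2.63, -2.39, -2.81 and -2.20, then -2.49, -2.50, -3.16 and -2.66, then -2.80, -2.72, -1.29 and -3.11. The same arrays, replicate 4 at 0 h and replicate 3 at 48 h, were again the highest for these genes.

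In liver the widest member was Mx1, a dynamin-like GTPase that blocks influenza and related viruses, with a pooled SD of 0.523. Its levels were -2.30, -2.58, -2.87 and -2.54 at 0 h, -2.20, -2.35, -3.27 and -3.20 at 24 h, and -2.70, -1.60, -3.06 and -2.98 at 48 h. The high array at 48 h was replicate 2, and at 24 h replicates 1 and 2 lay above 3 and 4. Liver Ifit1 (-0.54, -0.9998, -1.17 and -0.52 at 0 h) had the same order at 24 h, with -0.40, -0.72, -1.78 and -1.39. It was narrower at 48 h, with -0.98, -1.16, -0.95 and -1.32. Liver Ifi44 was at -0.57, -1.37, -0.87 and -0.72 at 0 h, -0.16, -0.55, -1.69 and -0.93 at 24 h, and -0.99, -0.95, -0.36 and -1.26 at 48 h. Liver Rsad2 was at 0.15, 0.15, -0.50 and 0.049, then 0.18, 0.39, -0.85 and -0.54, then -0.19, -0.035, 0.19 and -0.33. For Ifit1, Ifi44 and Rsad2 alike, replicate 3 was the lowest array at 24 h. Among the GTPases, liver Gbp6 was at -0.17, -0.61, -0.63 and 0.69 at 0 h, 0.12, -0.0097, -0.92 and -0.23 at 24 h, and -0.88, -0.38, -0.73 and -0.97 at 48 h. Igtp was at 2.94, 2.61, 2.70 and 3.75, then 3.58, 3.24, 2.84 and 2.90, then 2.65, 2.88, 2.91 and 2.86. Both were highest on replicate 4 at 0 h and on replicate 1 at 24 h, and Igtp hardly varied at 48 h.

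The members thus tended to be high or low on the same arrays. Over the 595 pairs of members in marrow, the correlation of deviations from the time mean averaged 0.591, and 72.6% of pairs exceeded 0.5. Over all pairs of 21032 genes the average was 0.0586 and the share 14.5%. In liver the average over 561 member pairs was 0.430 with 47.6% above 0.5, where all genes had 0.0276 and 10.9%. Of the 10 lists of cell type markers, some had higher means than the members. In marrow these were 0.898 for hepatocyte, 0.861 for B cell, 0.744 for erythroid, 0.743 for neutrophil and 0.646 for monocyte markers. In liver they were 0.693 for Kupffer cell, 0.518 for neutrophil and 0.459 for hepatocyte markers. The marrow hepatocyte value includes the 24 h replicate 2 array, where the median deviation of these markers was 7.91. At 0 h and 48 h their highest was 0.82 and 0.14. Each correlation runs over the same 12 arrays of a tissue, so pairs share arrays, and it is a description without a p. By role, the mean in marrow was 0.831 for Ifi35, Ifi44, Rtp4 and Xaf1, 0.656 for the effectors, 0.546 for the signalling factors and 0.322 for the GTPases. In liver the GTPases had the highest mean, 0.717, and the signalling factors the lowest, 0.134.

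Leaving out the marrow replicate 3 array at 48 h moved the marrow mean from 0.591 to 0.400, the lowest value with any 1 marrow array left out. In liver the lowest was 0.363, without the replicate 1 array at 24 h. Single members followed the rest to different degrees. In marrow, Usp18 and Irf7, the factor that amplifies type I interferon, had correlations of 0.988 and 0.986 with the mean of the other members, and Gbp2 0.968. In liver, Ifit1 had 0.949, Rtp4 0.935 and Ifit3 0.913, while Irf7 had 0.266. Isg20 followed the rest least in liver, at 0.013, and stood at 0.240 in marrow. Gbp5 was at -0.551 in marrow, where its reported probe and its other probe were themselves correlated at -0.496.

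**Figure D3:**
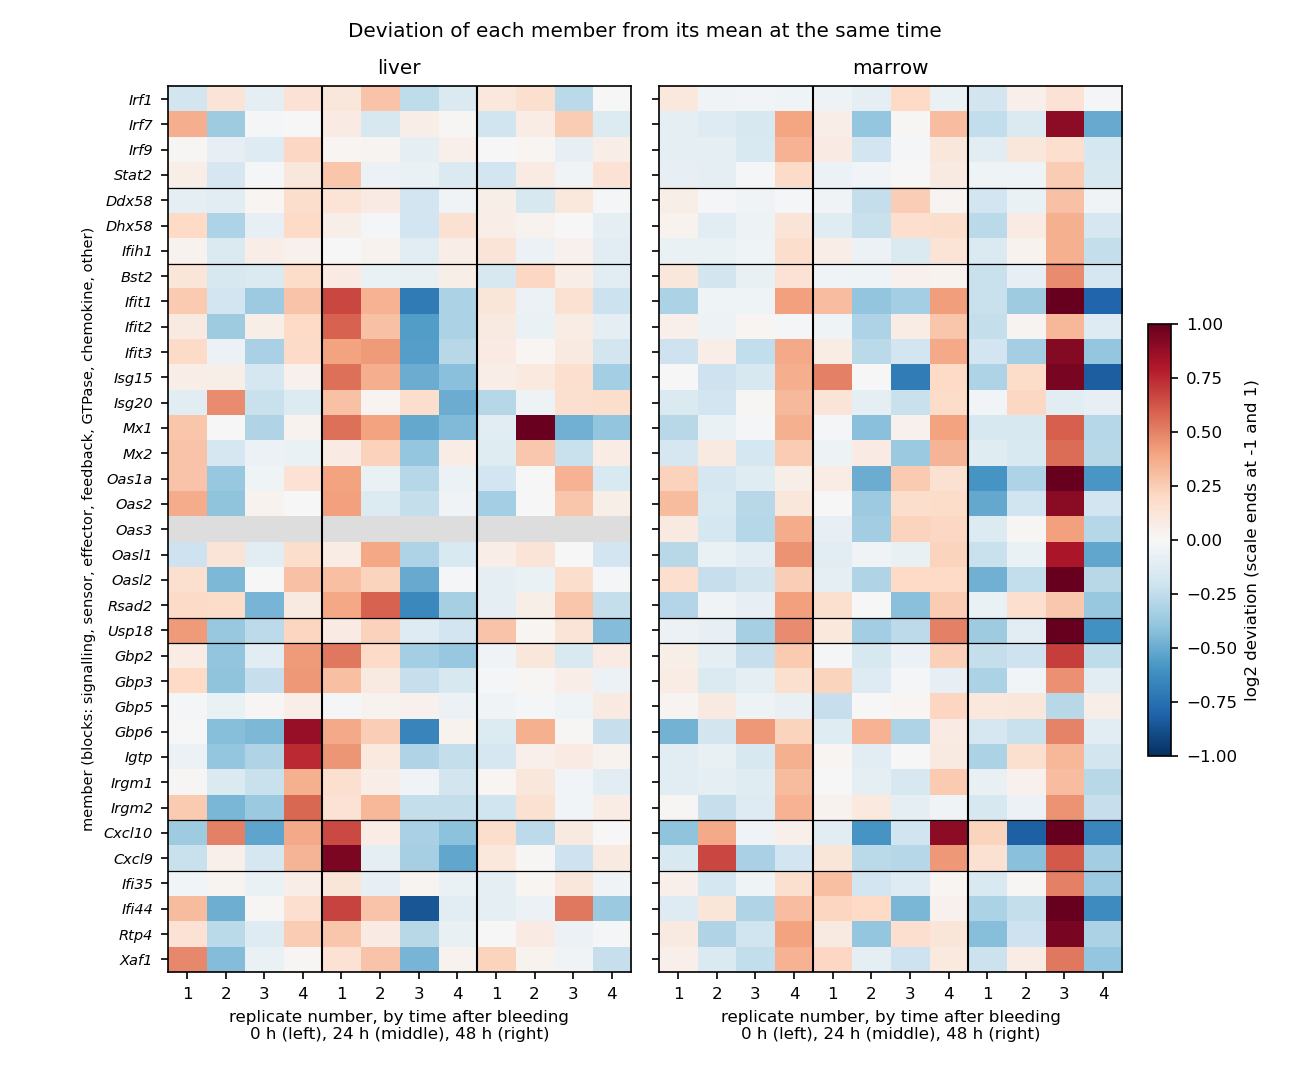
Deviation of each member from its own mean at the same time (log2), with members in rows ordered by role and the 12 arrays of a tissue in columns; colours end at -1 and 1, and the grey row is Oas3, not usable in liver. The marrow replicate 3 array at 48 h is the highest of its 4 in 33 of 35 members, with Gbp5 and Isg20 as the exceptions.

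Array by array, the marrow replicate 3 array at 48 h was the clearest. It was the highest of its 4 in 33 of the 35 members, where it was the highest for 31.7% of all genes, and its median member deviation was 0.50. The other 3 arrays of that time had medians of -0.20, -0.07 and -0.28. All 4 signalling factors, all 3 sensors, both chemokines and Usp18 were highest there, as were 13 of 14 effectors and 6 of 7 GTPases. Usp18 lay 1.07 above its time mean, and the effectors had a median of 0.70. At 0 h in marrow, replicate 4 was highest in 26 of 35 members (33.4% of all genes), with a median of 0.26. At 24 h in marrow, replicate 4 was highest in 21 (24.2% of all genes). Replicate 2, the array with hepatocyte markers, was lowest in 21 members, and it was also the lowest for 55.5% of all genes.

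In liver at 24 h, replicate 1 was highest in 22 of 34 members (24.8% of all genes) and replicate 3 lowest in 23 (19.3% of all genes). Their median deviations were 0.28 and -0.28, with 0.10 and -0.15 on the other two. Among the 13 liver effectors, replicate 3 was lowest in 12. At 0 h in liver, replicate 4 was highest in 20 members (21.6% of all genes) and in 7 of 7 GTPases, while replicate 2 was lowest in 20 (28.4% of all genes). The liver arrays of 48 h lay close together, with medians of -0.03, 0.03, 0.07 and -0.07. Within the 3 slides, the median member change in liver at 24 h against 0 h was 0.23, 0.25 and -0.55. Liver replicates 3 and 4 of 24 h and replicate 4 of 0 h were on the last of these slides. The median deviations of liver and marrow arrays with the same time and number had the same sign in 8 of 12 cases.

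**Figure D4:**
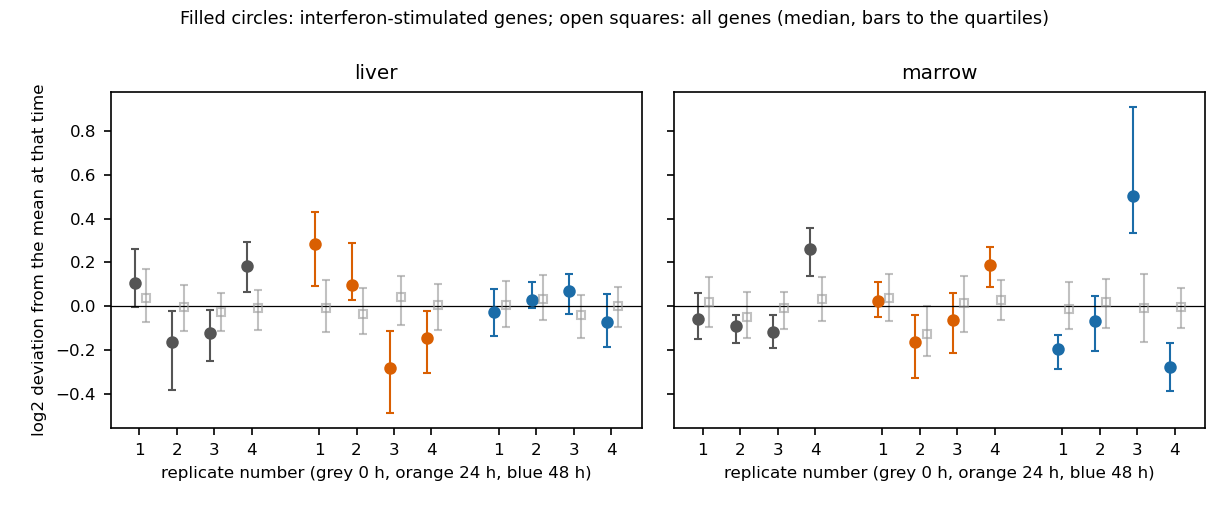
Median deviation of the members from their time means on each array (filled circles, bars from lower to upper quartile) and of all genes (open squares), in log2. The marrow replicate 3 array at 48 h reaches 0.50 and the liver 24 h arrays run from -0.28 to 0.28.

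That marrow array set the mean of its time. It was singled out by the members' own values, so lower member values without it follow from that choice and test nothing. Without it, 14 of 35 members had an unadjusted p under 0.05 at 48 h against 0 h, 12 of them lower, where 17.5% of all genes did. The median member change was then -0.29, against -0.04 with it, and 0 members passed the adjusted threshold in limma. For 48 h against 24 h the median moved from 0.10 to -0.06 without it. Without the replicate 4 array at 0 h, the median at 48 h against 0 h was 0.06. Arrays of 1 slide gave medians for this contrast from -0.54 to 0.35, each from 1 or 2 arrays per time. The direction of the members at 48 h in marrow therefore rests on these arrays.

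Cell type markers differed on the same arrays. On the marrow replicate 3 array at 48 h, 10 of 12 neutrophil markers and 10 of 14 T and natural killer cell markers were the highest of their time, with median deviations of 0.29 and 0.21. All 10 B cell markers, 8 of 10 erythroid markers and 9 of 11 macrophage markers were the lowest there, with medians of -0.48, -0.23 and -0.21. The median level of dendritic cell markers was -1.01 there, the highest of all marrow arrays, with -1.47 on the next. The summed level of neutrophil markers in marrow at 48 h ran from 2109 to 2862, and that of B cell markers from 55.4 to 108. On the marrow replicate 4 array at 0 h, all 11 macrophage and all 10 erythroid markers were highest, with medians of 0.27 and 0.31. Over all marrow arrays, it also had the highest median level of plasmacytoid dendritic cell (3.05) and B cell (3.38) markers. On the liver replicate 1 array at 24 h, all 8 usable neutrophil markers were highest (median 0.95), as were 9 of 12 macrophage markers (median 0.16). Other cell types were high there too. Over all liver arrays, it had the highest median level of plasmacytoid dendritic, T and natural killer, monocyte, B cell, dendritic and sinusoidal endothelium markers. The highest medians of neutrophil and macrophage markers lay on replicates 4 and 1 at 0 h. On the liver replicate 2 array at 0 h, all 12 macrophage markers were lowest (median -0.42). The part of these markers in the member values was not tested.

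The members' promoters are shown as a description of the list. RefSeq promoters (GRCm38.p6) were given for 28 of the 35 members. The ISRE core was searched as GAAA, any 2 bases, GAAA, and the GAS core as TTCNNNGAA, on both strands. An ISRE core lay in the 250 bases before the start of 15 of 28 members (53.6%), and of 3.46% of 27025 genes. A GAS core was there in 8 members (28.6%) and in 8.13% of genes. The members were listed as interferon-stimulated genes, so higher shares than among all genes follow from the list. They are no result of these arrays. By the rule of the 3 widest members per tissue, the 250 upstream bases are printed below 5′ to 3′ for Cxcl10 (chr5:92348890-92349139, minus strand), Ifit1 (chr19:34640639-34640888, plus strand), Oas1a (chr5:120907526-120907775, minus strand) and Ifi44 (chr3:151749911-151750160, minus strand). Mx1 and Gbp6 are named only. Capitals mark ISRE and GAS cores.
Cxcl10: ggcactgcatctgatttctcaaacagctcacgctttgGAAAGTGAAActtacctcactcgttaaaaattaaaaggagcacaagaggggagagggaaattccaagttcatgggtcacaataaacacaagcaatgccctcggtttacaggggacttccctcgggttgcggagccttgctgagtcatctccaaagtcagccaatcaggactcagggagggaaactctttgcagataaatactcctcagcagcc
Ifit1: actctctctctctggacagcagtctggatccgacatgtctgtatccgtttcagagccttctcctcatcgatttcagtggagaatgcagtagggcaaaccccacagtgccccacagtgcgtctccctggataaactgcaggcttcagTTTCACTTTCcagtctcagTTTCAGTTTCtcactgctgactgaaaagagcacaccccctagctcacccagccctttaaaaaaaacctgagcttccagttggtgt
Oas1a: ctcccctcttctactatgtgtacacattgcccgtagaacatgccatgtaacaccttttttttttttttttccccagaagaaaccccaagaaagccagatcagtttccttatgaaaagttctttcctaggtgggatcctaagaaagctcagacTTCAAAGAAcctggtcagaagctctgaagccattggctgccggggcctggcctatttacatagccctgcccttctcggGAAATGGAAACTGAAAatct
Ifi44: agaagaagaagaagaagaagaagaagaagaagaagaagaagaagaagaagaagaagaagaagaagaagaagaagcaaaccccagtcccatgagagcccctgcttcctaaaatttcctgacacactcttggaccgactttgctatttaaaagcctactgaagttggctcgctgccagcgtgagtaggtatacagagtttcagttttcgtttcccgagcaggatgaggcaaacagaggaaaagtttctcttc

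Cxcl10 holds 1 ISRE core, from 213 to 204 bases before its start. Ifit1 holds 2 on the other strand, from 104 to 95 and from 85 to 76. Oas1a holds 2 that overlap, from 20 to 11 and from 14 to 5, and a GAS core from 98 to 90. Ifi44 holds neither in these letters. Isg15 had 3 ISRE cores and Ifit3, Bst2, Gbp3 and Irgm1 had 2 each. In the 250 upstream bases, none was found for Ifit2, Isg20, Irf1, Irf7, Irf9, Oasl1, Oasl2, Ddx58, Ifih1, Ifi44, Ifi35, Cxcl9 or Xaf1. The marrow deviations of these genes had correlations with the other members from 0.240 (Isg20) to 0.986 (Irf7). In the 300 bases that run to 50 past the start, Ddx58 and Ifih1 held 1 ISRE core each. A match is a description of these letters only.

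The resting levels differed between tissues. At 0 h, 28 of the 35 members differed between marrow and liver in limma, 11 higher and 17 lower in marrow. Of all 22755 genes, 80.3% differed, 39.5% higher and 40.8% lower, so the members' share is near the background. The largest difference was Isg20, at 5.94 ± 0.24 (SD, n = 4) in marrow and 0.64 ± 0.32 (SD, n = 4) in liver (log2 5.29 ± 0.17 SE, adjusted p = 2.94e-16 in limma). Rsad2 was at 3.90 in marrow and -0.04 in liver, a difference of 3.94 ± 0.24 (SE). Oas3 was at 0.12 in marrow, while its liver levels of -3.27, -5.12, -3.56 and -3.84 were well above background on 3 of 4 arrays. Its fitted difference of 4.07 was 2.36 with the normexp background, so its size is not settled. Isg15 was at 5.31 in marrow and 3.02 in liver. Mx1, Oasl2, Oas1a, Oas2 and Ifit2 were also higher in marrow, by 1.79, 1.29, 0.89, 0.87 and 0.84, as were Gbp3 and Irf9, by 0.45 and 0.28. With the normexp background, Mx1 and Ifit2 differed by 1.07 and 0.42. The higher group thus held 9 of the 14 effectors.

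The GTPases and chemokines lay mostly the other way. Gbp6 was at -2.77 in marrow and -0.18 in liver (log2 -2.59 ± 0.28 SE, adjusted p = 3.35e-08 in limma). Bst2 (tetherin), which holds budding virions at the membrane, was at 2.69 in marrow and 5.14 in liver (log2 -2.45 ± 0.13 SE, adjusted p = 2.99e-13 in limma). Irgm2, Irgm1 and Gbp5 differed by -1.79, -1.11 and -0.96, and Cxcl9 and Cxcl10 by -1.30 and -0.90. Mx2, Oasl1, Ifi44, Ifih1, Stat2 and Ifit3 differed by -1.92, -1.79, -1.63, -1.32, -1.14 and -1.09. Usp18, Rtp4, Ddx58 and Ifi35 differed by -0.81, -0.77, -0.58 and -0.45. With the mean of their probes, Gbp5 and Ifih1 differed by -0.40 and -0.77. Not past the threshold were Igtp (-0.18), Irf7 (-0.16), Ifit1 (-0.11), Xaf1 (0.030), Irf1 (0.11), Dhx58 (0.19) and Gbp2 (0.41). Mx1 and Mx2, and likewise Oasl1 and Oasl2, thus lay on opposite sides.

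**Figure D5:**
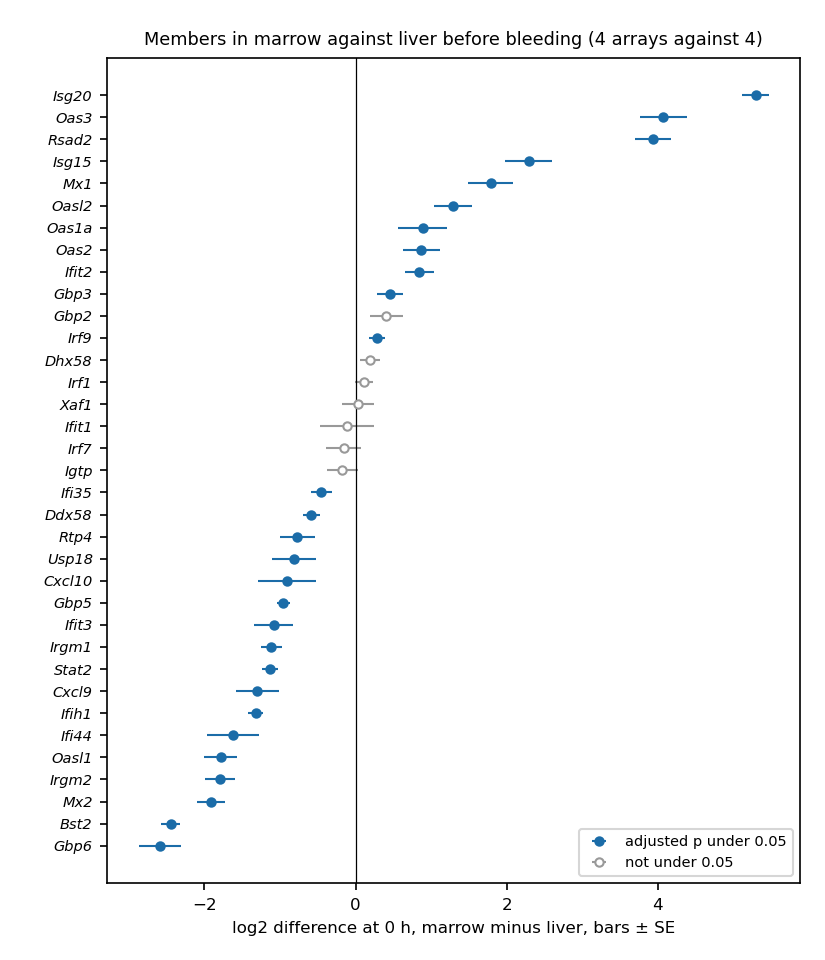
Marrow minus liver difference of each member at 0 h (log2), with limma's standard errors over 4 arrays per tissue; blue marks an adjusted p under 0.05. Values run from -2.59 (Gbp6) to 5.29 (Isg20), with 11 members higher and 17 lower in marrow.

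The rest of the pathway was read from lists of genes that are no members. Of 19 interferon genes, 16 were on the array. In each tissue, 14 of these were well above background on some array. Ifna14, Ifnl3 and an Ifnab probe were so on 12 of 12 arrays in both tissues, at low levels of -1.63 or less. Ifng was well above background on 11 of 12 marrow arrays and 4 of 12 liver arrays, and Ifnb1 on 1 of 12 in each tissue. Among ligands, receptors, 23 tested signalling genes and inhibitors, and the further interferon-induced genes (76 tested in liver, 78 in marrow), 0 passed in limma in any of the 6 contrasts within tissues. At an unadjusted p under 0.05 there were 0 ligands, at most 1 receptor and at most 3 signalling genes in any contrast. The last list had 4, 4 and 2 genes in liver and 8, 7 and 2 in marrow. Of all genes, 11.2%, 6.55% and 7.67% had such a p in liver and 12.7%, 15.8% and 7.68% in marrow. The smallest unadjusted p among ligands belonged to Ifng, Ifnk and Ifna9, all in marrow, with changes of -0.78 (24 h against 0 h), -0.44 (48 h against 0 h) and -0.18 (24 h against 0 h). Among receptors it belonged to Il10rb (0.28, liver, 24 h against 0 h), Ifngr2 (0.15, liver, 48 h against 24 h) and Ifnlr1 (-0.39, marrow, 48 h against 24 h).

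Among signalling genes the smallest p belonged to Myd88, an adaptor of Toll-like receptors (0.27 in liver, 48 h against 0 h). It was followed by Socs3, an inhibitor of JAK signalling (0.79 in marrow, 24 h against 0 h), and the repressor Irf2 (-0.25 in marrow, 48 h against 0 h). Among the further induced genes it belonged to Ifitm1, a membrane protein that blocks viral entry (0.67 in liver at 24 h, adjusted p = 0.300 in limma). The chemokine Ccl5 (-0.86 in liver, 48 h against 24 h) and Gbp9 (-0.75 in liver, 48 h against 0 h) came next. These further genes shared part of the members' spread, with a mean pairwise correlation of 0.316 in liver and 0.367 in marrow. On the marrow replicate 3 array at 48 h, 63 of 77 were the highest of their time, with a median deviation of 0.28. The receptors were highest there in 2 of 6 cases and the ligands in 1 of 7. The share of all genes that were highest on this array is given above beside that of the members.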

How the data were processed

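RNA was measured on 24 arrays of 1 colour (Cy3), per the labels. Per the submitters' processing notes, images were read with Agilent Feature Extraction 10.10.1.1. The deposited processed intensity had its background removed and its spatial trend corrected by that software, per the file headers, with no scaling from array to array. A table of log2 values by the authors came with it. How that table was made is not given in the sources used here, and it served only as an alternative.

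Processed intensity was converted to log2 and the 75th percentile of the array was subtracted. That percentile was 354 to 467 in liver and 694 to 942 in marrow. The 3671 control spots and outlier spots were left out, 0 spots were saturated, and spots of a probe were averaged. Probes were used in a tissue if the 4 arrays of some group all had them well above background. A gene is its brightest probe of these. Members were matched by the scanner files' own names, and other probes through RefSeq names (GRCm38.p6), while probe positions are those of mm9, per the file headers.

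Each tissue was fitted on its 12 arrays with limma 3.58.1 (lmFit, eBayes, two-sided) in R 4.3.3, with Benjamini-Hochberg adjustment over all genes tested and a threshold of 0.05. The interaction and the tissue difference at 0 h used all 24 arrays. In the interaction, 34 members were tested. The procedure was tested on simulated data. Within-time deviations are levels minus the mean of the same 4 arrays. Correlations of these run over 12 arrays. Arrays were pairwise distinct, with Spearman correlations of 0.967 or higher within a tissue.

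The members and lists were chosen with earlier results of these data known. Arrays are named in full for members that passed the threshold, for the 8 with the largest pooled SD per tissue and for those separated between times. From each other list the 3 genes with the smallest p are named, and per tissue the 10 non-members that followed the members most. Replicate numbers come from the sample titles and did not pair the samples. The correlation of same-numbered arrays within a tissue was -0.27 to 0.17, and between liver and marrow of the same time it exceeded 0.1 in 7 of 12 cases. Alternatives covered scaling (array median, quantile), normexp background with an offset of 50, the authors' values, filters, probe choice, slide, replicate, array weights, variance models, arrays in the fit and each array left out. The row on the slide as a block was added after seeing the data. The number of arrays limits the precision.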

Additional observations from a re-analysis of the deposited data

Results flagged for a closer look

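In the 78 groups of 4 arrays examined, 8 had an array flagged by Dixon's test. Its gap to the nearest other was too large a part of the range of the group. For a single group that is not selected, chance gives about 1 in 20. Most groups here were of members picked for a large spread or for separation, and they share arrays. The number flagged therefore cannot be set against that rate. Several of the flagged groups had it on the marrow replicate 3 array at 48 h. Oas1a was at 4.30 there, with 2.52 on the next array. Oasl2 was at 2.08, with 0.82 on the next. Rtp4 was at 3.17, with 2.02 on the next. In marrow at 0 h, the median deviation of the members was 0.26 on replicate 4, with -0.061 on the next array.

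Irf1 was highest on marrow replicate 1 at 0 h, at 3.52 with 3.39 on the next array, and on marrow replicate 3 at 24 h, at 3.45 with 3.20 on the next. Rtp4 was lowest on marrow replicate 2 at 24 h, the array with hepatocyte markers, at 1.84 with 2.32 on the next. Rsad2 was lowest on liver replicate 3 at 0 h, at -0.50 with 0.049 on the next.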

How the results depend on the processing

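In each of the 6 contrasts within tissues and both interactions, 0 members passed in limma under every alternative and with each array left out. In marrow, members at an unadjusted p under 0.05 numbered 1 to 7 at 24 h, 2 to 14 at 48 h and 1 to 8 between 24 h and 48 h. In any single liver contrast they numbered 1 to 4. With array weights, 777 genes were called in marrow at 48 h instead of 227, among them 0 members, and the median member change was -0.18. Without the 24 h replicate 2 array, 124 genes were called in marrow at 24 h instead of 214. The mean pairwise correlation stayed between 0.417 and 0.484 in liver and between 0.542 and 0.658 in marrow under other settings, and with a replicate block it was 0.470 and 0.608. That block called 0 members in the 6 contrasts and both interactions, and 28 between tissues. Under scaling to the array median, that of all genes was 0.169 and 0.188. The tissue count of 28 lay between 24 and 29 with each array left out. Gbp5 in liver at 24 h reversed under the mean of its probes, to -0.0048 (adjusted p = 0.993 in limma). Ifi35 between tissues was -0.08 under quantile normalisation (adjusted p = 0.566 in limma) instead of -0.45, Rtp4 was -0.51 there, and Irf9 0.52, against 0.17 without the marrow 0 h replicate 4 array. With single arrays left out, Cxcl10 lost its call in 5 cases, Irf9 and Gbp3 in 3 each, and Oas1a and Usp18 in 1 each; Irf9 also lost it under scaling to the array median and Cxcl10 without the filter on dim probes. The median member deviation of liver replicates 2 and 4 at 48 h was -0.037 and 0.011 under scaling to the array median, instead of 0.03 and -0.07. The liver replicate 1 array at 24 h was then highest in 14 members instead of 22. The authors' values were used within tissues only.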

Other observations

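Some genes outside the member list followed the members' within-time deviations closely, by Pearson correlation with the mean member deviation over the 12 arrays of a tissue. In marrow they were Tgtp2 (0.963), Rnls (0.959), Parp12 (0.957), Gipc3 (0.935), Ifi27 (0.934), Bbs12 (0.930), Zranb3 (0.928), Cmtm5 (0.919), Mr1 (0.915) and Scgb2b15 (0.908). Tgtp2, a GTPase with the close copy Tgtp1, Parp12 and Ifi27 were in the list of further interferon-induced genes. In liver they were Tgtp2 (0.953), Ccna2 (0.952), Spata33 (0.940), Il17rb (0.940), Plk1 (0.937), Slpi (0.936), Phf11d (0.935), Cmpk2 (0.933), Ube2c (0.930) and H2ac23 (0.922). Tgtp2, Phf11d and Cmpk2 were in that list. Ccna2, Plk1 and Ube2c, which act in mitosis, were not. The median over all non-members was -0.060 in liver and 0.063 in marrow. With so many genes and 12 arrays, high values at the top of such a ranking are no finding about a gene.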
